A study of Mus musculus with 4 samples.

Results

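The genes described here make cholesterol, control its synthesis, and move it through or out of the cell. They were taken from a list of 35 mouse genes, as every probe set annotated with exactly 1 of these symbols, and 28 of the 35 genes were represented, by 46 of 45037 probe sets. The values are expression intensities of splenic dendritic cells (DC) on 4 Affymetrix arrays, with 1 array each for MARCO-/- DC with LPS, MARCO-/- DC with PBS, WT DC with LPS and WT DC with PBS. DC were taken by positive selection for CD11c from spleens pooled from 5 to 6 mice of 8 to 12 weeks, labelled C56BL/6 in both genotypes (the methods name C57BL/6, for the WT mice), and were cultured overnight with LPS at 100 ng/ml, a bacterial ligand of TLR4, or with PBS. MARCO, a scavenger receptor of macrophages and DC, is deleted throughout the animal in the MARCO-/- mice. With 1 array per group no replicate exists and nothing could be tested, so a gene is called when its fold is at least 2, the threshold of the study's methods. Where a gene had several probe sets, the brightest on average over the arrays stood for it.

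Cholesterol is built from acetyl-CoA through mevalonate, isoprenoid diphosphates, squalene and lanosterol. The SREBP transcription factors switch on the enzymes of this path: when membranes of the endoplasmic reticulum are poor in sterol, the escort SCAP carries SREBP to the Golgi, where it is cut free, and when they are rich in sterol the INSIG proteins hold SCAP back. The LXR nuclear receptors answer to oxysterols, which are oxidized derivatives of cholesterol, and switch on efflux transporters, apolipoprotein E and MYLIP, an E3 ligase that marks lipoprotein receptors for degradation. In macrophages and DC both programs are known to respond to Toll-like receptor ligands and to interferon.

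The probe set for the deleted gene, Marco, had intensities of 4.25 with LPS and 3.95 with PBS in MARCO-/- DC, and 3.15 with LPS and 8.05 with PBS in WT DC. The median of all intensities was 4.87, so these values lie near the background, and whether the probe set covers the deleted part is not stated. Of 10 DC markers, 9 were measured, and all of them were above that median on every array. Itgax, which encodes the CD11c used for the selection, had 16.4 with LPS against 621 with PBS in MARCO-/- DC, and 12.9 with LPS against 548 with PBS in WT DC. Of the 9 DC markers, 3 were at least 2-fold higher with LPS and 4 lower in MARCO-/- DC (6.32% and 5.98% of all genes). In WT DC, 1 was higher and 3 lower (6.2% and 8.31% of all genes). Cd80 was higher in both genotypes, 3.33-fold in MARCO-/- DC and 3.28-fold in WT DC. RNA of other cells was present. The summed intensity of 8 fibroblast markers was 36.0 with LPS and 414 with PBS in MARCO-/- DC. In WT DC it was 1308 with LPS and 28.0 with PBS. Most of the sums of 414 and 1308 is Col3a1, with 315 and 959. Col1a2 and Pdgfra lay below the median of all intensities on every array. The 6 skeletal muscle markers summed to 27.9 with LPS and 239.7 with PBS in MARCO-/- DC. In WT DC they summed to 675 with LPS and 26.4 with PBS. The MARCO-/- PBS and the WT LPS arrays therefore stand apart, and as every comparison holds 1 of them, none could be made without them. Erythroid markers, 5 in number, summed to 6836 with LPS and 6406 with PBS in MARCO-/- DC, and to 3994 with LPS and 4412 with PBS in WT DC. Most of these sums is Hba-a1, with 6792 and 6275 in MARCO-/- DC and 3971 and 4372 in WT DC. By gene, 2 of the 5 were at least 2-fold lower with LPS in each genotype (5.98% and 8.31% of all genes), and none was higher. The part of these cells in the results below was not tested. In bulk RNA, fewer cells of a type and less RNA per cell cannot be told apart.

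**Figure D1:**
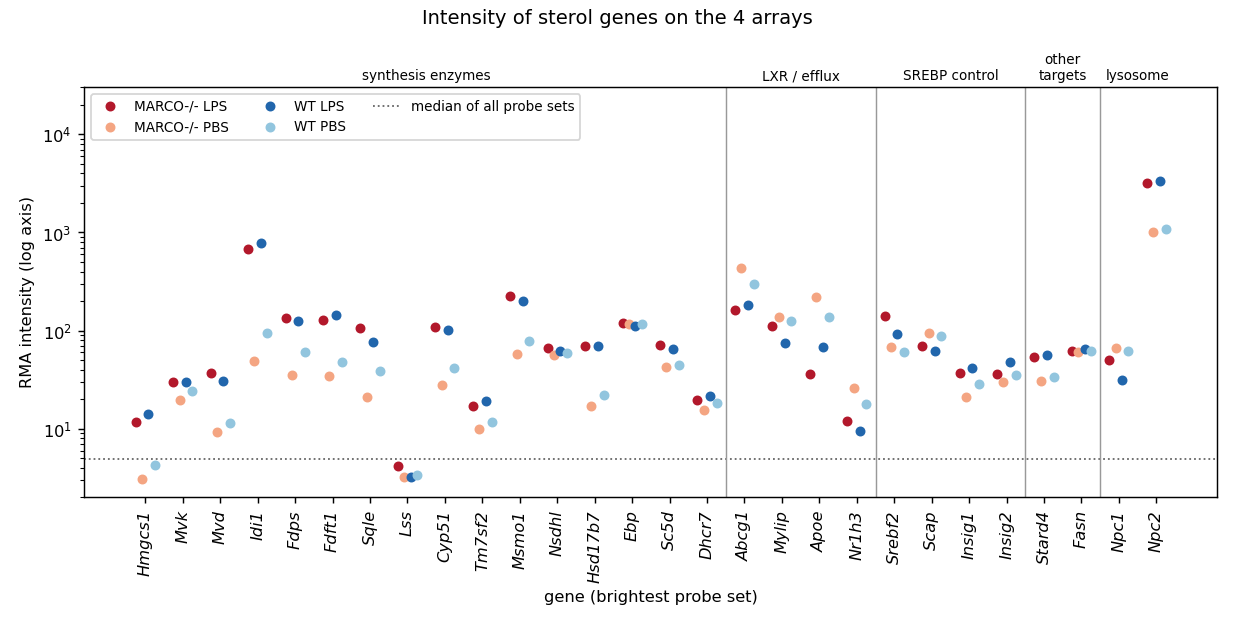
RMA intensity (log axis) of the 28 measured genes on the 4 arrays, 1 point per array, with a dotted line at the median of all probe sets, 4.87. The LPS points lie above the PBS points for most synthesis enzymes (Idi1 at 683 with LPS against 48.8 with PBS in MARCO-/- DC) and below them for all 4 LXR and efflux genes.

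With LPS, enzymes of sterol synthesis were higher than with PBS in both genotypes. Of 16 measured synthesis genes, 9 passed 2-fold upward in MARCO-/- DC and 8 in WT DC, and 0 passed it downward in either genotype. The median log2 ratio of LPS over PBS was 1.92 in MARCO-/- DC and 1.02 in WT DC, against 0.00 and 0.05 over all 17097 genes. Over the 28 measured members, 11 were at least 2-fold higher and 3 lower in MARCO-/- DC, where 6.32% of all genes were higher and 5.98% lower. In WT DC 9 members were higher and 0 lower, where 6.2% of all genes were higher and 8.31% lower. Acat2, an acetoacetyl-CoA thiolase, and Pmvk, a mevalonate pathway kinase, were the 2 synthesis genes with no probe set of their symbol alone. Counted by probe set, 14 of 26 were at least 2-fold higher in MARCO-/- DC and 12 of 26 in WT DC.

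In the mevalonate stage, Idi1, the isomerase that makes the reactive isoprenoid building block, had the highest ratio of the synthesis genes. Its intensity was 683 with LPS against 48.8 with PBS in MARCO-/- DC (14.0-fold higher), and 779 with LPS against 94.5 with PBS in WT DC (8.24-fold higher). Its other probe set had log2 ratios of 4.36 in MARCO-/- DC and 3.23 in WT DC. Both LPS arrays lay above both PBS arrays. Mvd, the decarboxylase that acts just before Idi1, had 37.1 with LPS against 9.28 with PBS in MARCO-/- DC (4.0-fold higher), and 30.8 with LPS against 11.5 with PBS in WT DC (2.67-fold higher). The other probe set of Mvd had log2 ratios of 1.45 in MARCO-/- DC and 0.99 in WT DC, and so just missed 2-fold in WT DC. Hmgcs1, the HMG-CoA synthase at the start of the path, had 11.8 with LPS against 3.11 with PBS in MARCO-/- DC (3.78-fold higher), and 14.1 with LPS against 4.25 with PBS in WT DC (3.33-fold higher). Its PBS values lie below the median of all intensities, which limits its fold. Mvk, the mevalonate kinase, missed 2-fold, with 30.0 with LPS against 19.4 with PBS in MARCO-/- DC, and 30.0 with LPS against 24.5 with PBS in WT DC.

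At the steps that build the squalene chain and close it, Fdps, the farnesyl diphosphate synthase, had 134.9 with LPS against 35.1 with PBS in MARCO-/- DC (3.84-fold higher), and 126 with LPS against 61.2 with PBS in WT DC (2.06-fold higher). Fdft1, the squalene synthase that commits farnesyl diphosphate to sterols, had 129.8 with LPS against 34.4 with PBS in MARCO-/- DC (3.77-fold higher), and 143 with LPS against 47.5 with PBS in WT DC (3.0-fold higher). Sqle, the squalene epoxidase and a rate-limiting step, had 106 with LPS against 20.9 with PBS in MARCO-/- DC (5.08-fold higher). In WT DC it had 77.0 with LPS against 38.8 with PBS, which is 1.99-fold and just under the threshold. It is the 1 synthesis gene called in MARCO-/- DC and not in WT DC. After quantile normalization and cyclic loess its log2 ratio in WT DC was 1.15 and 1.09, past 2-fold. Lss, the lanosterol synthase, was near the background on every array, between 3.19 and 4.17.

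Among the enzymes that turn lanosterol into cholesterol, 3 of the 8 measured were at least 2-fold higher in both genotypes and 5 in neither. Over all genes, 6.32% passed that threshold upward with LPS in MARCO-/- DC and 6.2% in WT DC. The share past it in both can therefore be at most 6.2%. Cyp51, the lanosterol demethylase, had 109.5 with LPS against 28.1 with PBS in MARCO-/- DC (3.90-fold higher), and 100.5 with LPS against 41.6 with PBS in WT DC (2.42-fold higher). Msmo1, the methylsterol oxidase, had 226 with LPS against 57.4 with PBS in MARCO-/- DC (3.94-fold higher), and 202 with LPS against 78.9 with PBS in WT DC (2.55-fold higher). Hsd17b7, a reductase of the same demethylation complex, had 69.9 with LPS against 17.2 with PBS in MARCO-/- DC (4.06-fold higher), and 70.0 with LPS against 22.1 with PBS in WT DC (3.17-fold higher). Hsd17b7 and Cyp51 each had 1 further probe set that lay at the background, under 4.42 on every array. Nsdhl, a dehydrogenase of that complex, had folds of 1.19 in MARCO-/- DC and 1.05 in WT DC, Ebp, the sterol isomerase, 1.04 and 0.958, and Dhcr7, a reductase of the final steps, 1.27 and 1.16. Sc5d, the sterol desaturase, had 1.70 in MARCO-/- DC and 1.45 in WT DC, and Tm7sf2, a sterol reductase, 1.70 and 1.62.

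**Figure D2:**
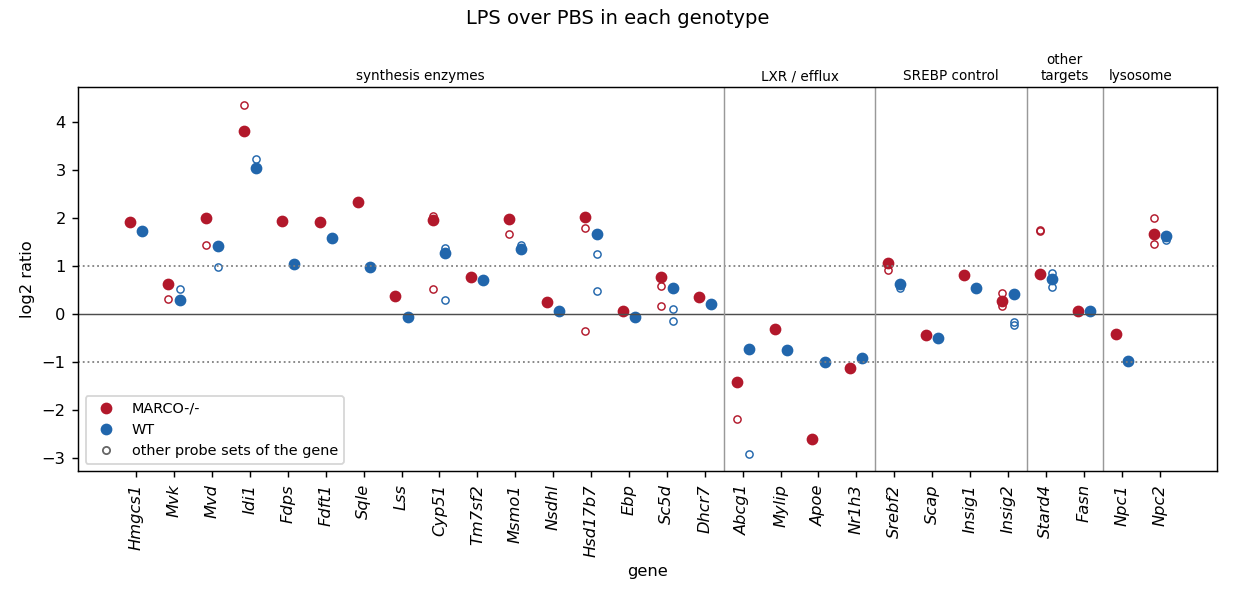
log2 ratio of LPS over PBS for the 28 measured genes in MARCO-/- (red) and WT (blue) DC; filled points are the brightest probe set of a gene, open points its other probe sets, and dotted lines mark 2-fold. Idi1 has the highest ratios (3.81 and 3.04), all 4 LXR and efflux genes lie below 0, and Apoe has -2.61 in MARCO-/- DC.

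The stretches before the transcription start of 6 synthesis genes that were at least 2-fold higher with LPS in both genotypes are shown next, because these genes moved together, followed by those of 2 LXR and efflux genes that went the other way. They were read from RefSeq promoter windows of GRCm38.p6, which held 28 of the 35 genes, all but Abcg1, Fdft1, Fdps, Npc1, Scd2, Sqle and Stard4. They run 5′ to 3′ on the strand of the gene and end at the last base before the start. Capitals mark CCAAT, the box bound by NF-Y, a known partner of SREBP, on either strand (ATTGG on the other strand), and in Hmgcs1 also a sterol regulatory element, TCACNCCAC. Nr1h3 and Apoe have several windows, of which 1 is shown.
Idi1 (chr13:8885486-8885605, plus strand): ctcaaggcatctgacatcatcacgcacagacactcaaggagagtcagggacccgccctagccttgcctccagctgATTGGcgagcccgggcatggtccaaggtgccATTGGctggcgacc
Mvd (chr8:122443423-122443542, minus strand): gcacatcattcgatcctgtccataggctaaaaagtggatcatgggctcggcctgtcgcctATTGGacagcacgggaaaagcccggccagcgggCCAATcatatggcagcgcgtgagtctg
Hmgcs1 (chr13:119690201-119690350, plus strand): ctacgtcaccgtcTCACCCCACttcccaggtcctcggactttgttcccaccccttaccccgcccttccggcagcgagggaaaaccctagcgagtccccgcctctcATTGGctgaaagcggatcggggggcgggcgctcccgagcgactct
Cyp51 (chr5:4104698-4104817, minus strand): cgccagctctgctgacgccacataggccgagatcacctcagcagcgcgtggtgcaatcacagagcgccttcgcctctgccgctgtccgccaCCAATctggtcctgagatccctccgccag
Msmo1 (chr8:64733579-64733698, minus strand): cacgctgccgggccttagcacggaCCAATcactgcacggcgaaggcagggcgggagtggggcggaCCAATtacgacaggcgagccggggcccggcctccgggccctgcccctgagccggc
Hsd17b7 (chr1:169969206-169969325, minus strand): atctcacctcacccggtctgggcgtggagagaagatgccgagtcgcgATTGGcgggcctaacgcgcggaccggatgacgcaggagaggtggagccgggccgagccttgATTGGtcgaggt
Nr1h3 (chr2:91195117-91195236, minus strand): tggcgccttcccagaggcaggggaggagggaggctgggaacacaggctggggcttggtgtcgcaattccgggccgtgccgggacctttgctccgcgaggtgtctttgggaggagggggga
Apoe (chr7:19699189-19699308, minus strand): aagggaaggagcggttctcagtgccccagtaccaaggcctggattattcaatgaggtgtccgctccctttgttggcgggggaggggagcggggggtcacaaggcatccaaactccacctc

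The windows run 250 bases before to 50 bases after a start. CCAAT was found in 14 of 15 synthesis genes with a window, in at least 1 window of the gene. Acat2, which was not measured, lacked it, and all 13 measured ones had it. CCAAT was found in 41.1% of all 27025 genes. Of the 5 LXR and efflux genes with a window, Mylip alone had it. The 13 measured synthesis genes include Mvk, Lss, Tm7sf2, Nsdhl, Ebp, Sc5d and Dhcr7, which were not past 2-fold with LPS in either genotype. Idi1 has CCAAT boxes whose first bases lie 45 and 14 bases before the start, and Mvd has them at 60 and 27 bases. The letters TCACNCCAC were found in Hmgcs1 alone, 137 bases before its start, among the 28 genes with a window, and in 1.44% of all genes. The GC box GGGCGG was found in 14 of the 15 synthesis genes (38.2% of all genes), all but Pmvk. The E-box CACGTG was found in 3 of the 15 (8.09% of all genes). AGGTCA, the unit of the LXR response element, was found in 2 of the 15 (18.1% of all genes), and in none of the 5 LXR and efflux genes. Both strands were searched, and the motifs were chosen with the expression values known. These matches describe the letters in the windows.

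In contrast with synthesis, the 4 measured genes of LXR and efflux all had log2 ratios of LPS over PBS below 0 in both genotypes. In MARCO-/- DC, 3 of the 4 were at least 2-fold lower, and in WT DC none was, beside 5.98% and 8.31% of all genes. Their median log2 ratio was -1.27 in MARCO-/- DC and -0.83 in WT DC. The median of the synthesis genes lay above that of the efflux genes by 3.18 in MARCO-/- DC and by 1.85 in WT DC, on the log2 scale. Abca1, the main cholesterol exporter to lipid-poor apolipoprotein, and Nr1h2, which encodes LXR-beta, had no probe set of their symbol alone.

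Apoe, the apolipoprotein that carries exported cholesterol, had 35.9 with LPS against 219 with PBS in MARCO-/- DC (6.10-fold lower). In WT DC it had 68.4 with LPS against 136 with PBS (1.99-fold lower, just under the threshold). Abcg1, a transporter that passes cholesterol to lipoproteins, had 162 with LPS against 433 with PBS in MARCO-/- DC (2.67-fold lower), and 182 with LPS against 299.7 with PBS in WT DC (1.65-fold lower). The other probe set of Abcg1 had 8.78 with LPS against 40.1 with PBS in MARCO-/- DC, and 5.22 with LPS against 39.3 with PBS in WT DC, past 2-fold in both. Nr1h3, which encodes LXR-alpha, had 12.1 with LPS against 26.2 with PBS in MARCO-/- DC (2.17-fold lower), and 9.48 with LPS against 17.8 with PBS in WT DC (1.88-fold lower). Mylip, the E3 ligase, had 112 with LPS against 138 with PBS in MARCO-/- DC, and 74.9 with LPS against 126 with PBS in WT DC, under 2-fold in both. For each of these genes both LPS values lay below both PBS values.

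Macrophages express Apoe and Nr1h3, and their markers moved in the same direction. Of 15 macrophage markers listed, 14 were measured. With LPS, 11 of them were at least 2-fold lower in MARCO-/- DC (5.98% of all genes) and 13 in WT DC (8.31% of all genes), and none was higher. Their summed intensity was 677 with LPS against 3364 with PBS in MARCO-/- DC, and 458 with LPS against 2111 with PBS in WT DC. The defining genes C1qa, C1qb and C1qc of complement C1q were above the median of all intensities on every array, down to 5.58 for C1qb with LPS in MARCO-/- DC. At or below that median were Mrc1 and Cd163 with LPS in MARCO-/- DC and Timd4 with LPS in WT DC. Spic, the factor of red pulp macrophages, went the other way, with 434 with LPS against 234.5 with PBS in MARCO-/- DC, and 247 with LPS against 189.5 with PBS in WT DC. Markers of some other cells were also lower with LPS. All 4 measured neutrophil markers were at least 2-fold lower in both genotypes, and they summed to 16.8 with LPS against 282 with PBS in MARCO-/- DC, and 36.7 with LPS against 361 with PBS in WT DC. Of 6 NK cell markers, 4 were at least 2-fold lower in each genotype, while Gzmb was 1.28-fold higher in MARCO-/- DC and 2.03-fold higher in WT DC. The 6 summed to 182 with LPS against 544.5 with PBS in MARCO-/- DC, and 348 with LPS against 835 with PBS in WT DC. The 5 measured B cell markers, none past 2-fold, summed to 1533 with LPS against 1203 with PBS in MARCO-/- DC. In WT DC they summed to 2015 with LPS against 1505 with PBS. The part of these cells in the efflux values was not tested.

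**Figure D3:**
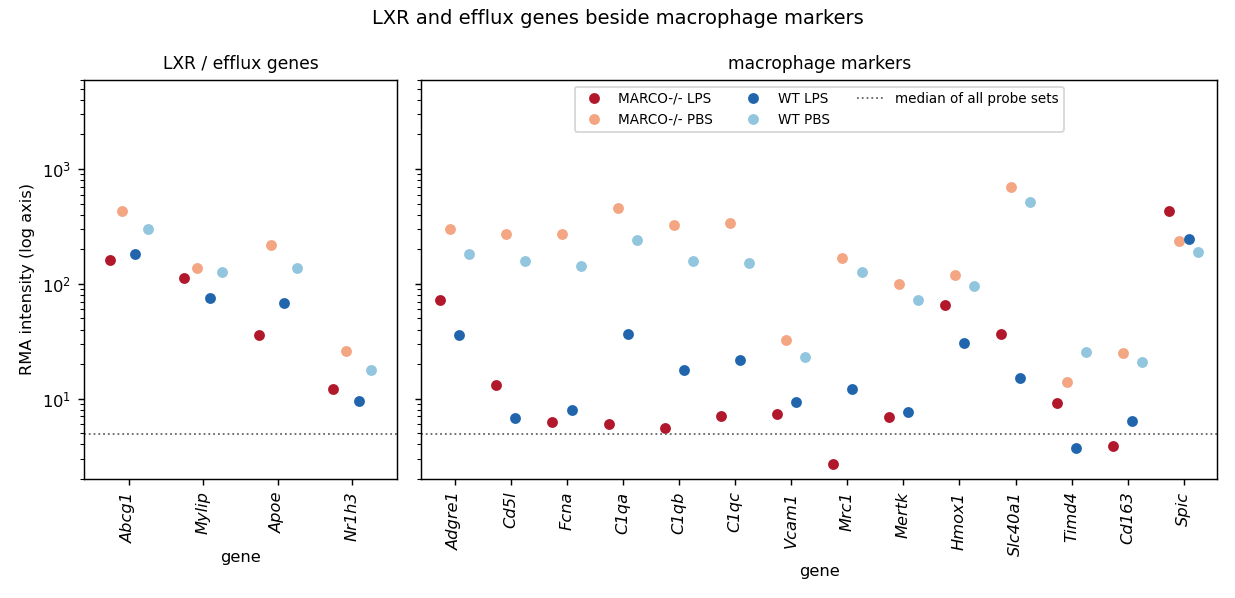
RMA intensity (log axis) of the 4 measured LXR and efflux genes, left, and of 14 macrophage markers, right, with 1 point per array and a dotted line at the median of all probe sets. Apoe has 219 with PBS in MARCO-/- DC, against 136 with PBS in WT DC, and 13 of the 14 macrophage markers are likewise higher in MARCO-/- than in WT DC with PBS.

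Of the 4 measured genes that control SREBP, 1 was past 2-fold, and in MARCO-/- DC alone, where 6.32% of all genes were higher. Srebf2, which encodes the SREBP that acts mainly on sterol genes, had 141 with LPS against 67.7 with PBS in MARCO-/- DC (2.08-fold higher), and 92.8 with LPS against 60.5 with PBS in WT DC (1.53-fold). Its other probe set had log2 ratios of 0.93 in MARCO-/- DC and 0.54 in WT DC, and so missed 2-fold. Insig1, the sterol-dependent brake that SREBP itself switches on, had 36.7 with LPS against 20.9 with PBS in MARCO-/- DC (1.75-fold), and 41.5 with LPS against 28.3 with PBS in WT DC (1.47-fold). Insig2, the related brake, had 1.21-fold in MARCO-/- DC and 1.34-fold in WT DC. Its other probe sets had log2 ratios of 0.44 and 0.17 in MARCO-/- DC, and went the other way in WT DC, at -0.23 and -0.16. Scap, the escort, had 69.3 with LPS against 94.0 with PBS in MARCO-/- DC, and 62.5 with LPS against 88.4 with PBS in WT DC. Srebf1, which encodes the SREBP of fatty acid genes and is itself an LXR target, had no probe set of its symbol alone.

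Of the 4 measured genes of lysosomal handling, sterol transport and fatty acid synthesis, Npc2 was past 2-fold in both genotypes. Among all genes 6.32% were higher in MARCO-/- DC and 6.2% in WT DC. Npc2, the soluble lysosomal protein that hands cholesterol to NPC1, had 3206 with LPS against 1012 with PBS in MARCO-/- DC (3.17-fold higher), and 3335 with LPS against 1088 with PBS in WT DC (3.07-fold higher). All 3 of its probe sets were past 2-fold in both genotypes. Npc1, the membrane protein that receives this cholesterol, had 49.9 with LPS against 66.5 with PBS in MARCO-/- DC, and 31.4 with LPS against 61.8 with PBS in WT DC (1.97-fold lower). Stard4, a cytosolic sterol carrier and SREBP target, had 53.8 with LPS against 30.3 with PBS in MARCO-/- DC (1.77-fold), and 56.1 with LPS against 33.9 with PBS in WT DC (1.66-fold). Its other 2 probe sets were past 2-fold in MARCO-/- DC, at log2 ratios of 1.75 and 1.73, and had 0.85 and 0.56 in WT DC. Fasn, the fatty acid synthase, had between 59.9 and 64.9 on the 4 arrays. Soat1, which esterifies cholesterol for storage, and Scd2, a fatty acid desaturase, had no probe set of their symbol alone.

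With PBS, no member was at least 2-fold higher or lower in MARCO-/- than in WT DC, where 0.76% of all genes were higher and 0.287% lower. Of the 16 synthesis genes, 15 had a log2 ratio below 0, and Ebp had the same value, 116, in both genotypes. Among all genes 41.8% were below 0. The median log2 ratio of MARCO-/- over WT was -0.35 for the synthesis genes and 0.54 for the LXR and efflux genes, all 4 of which were above 0, against 0.01 over all genes. Idi1 had 48.8 in MARCO-/- and 94.5 in WT DC (log2 ratio -0.95), and its other probe set had 19.0 and 43.8 (log2 ratio -1.21), past 2-fold. Sqle had 20.9 in MARCO-/- and 38.8 in WT DC (log2 ratio -0.89), and Fdps had 35.1 and 61.2 (log2 ratio -0.80). Apoe had 219 in MARCO-/- and 136 in WT DC (log2 ratio 0.68), Nr1h3 had 26.2 and 17.8 (log2 ratio 0.56) and Abcg1 had 433 and 299.7 (log2 ratio 0.53). The other probe set of Abcg1 had 40.1 in MARCO-/- and 39.3 in WT DC (log2 ratio 0.03). The 14 macrophage markers, of which 2 were at least 2-fold higher in MARCO-/- DC, had a median log2 ratio of 0.48 here.

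With LPS, no member was at least 2-fold apart between MARCO-/- and WT DC either, where 2.09% of all genes were higher and 1.31% lower in MARCO-/- DC. The synthesis genes had log2 ratios between -0.27 and 0.46, with 9 above 0 and 6 below, and a median of 0.11 that was -0.04 after quantile normalization or cyclic loess. The median of the LXR and efflux genes was 0.09, and -0.03 and -0.02 under these 2 settings. Mvk had the same value, 30.0, in both genotypes. Apoe had 35.9 in MARCO-/- and 68.4 in WT DC (log2 ratio -0.93), the lowest ratio of the members. Npc1 had 49.9 in MARCO-/- and 31.4 in WT DC (log2 ratio 0.67), Srebf2 had 141 and 92.8 (log2 ratio 0.60), and Mylip had 112 and 74.9 (log2 ratio 0.58). Of the 14 macrophage markers, 4 were higher and 4 were lower in MARCO-/- DC with LPS. The lower ones were C1qa, C1qb, C1qc and Mrc1, the mannose receptor, with C1qa at 6.06 in MARCO-/- and 36.8 in WT DC. The higher ones were Adgre1, Hmox1, Slc40a1 and Timd4, with Slc40a1, the iron exporter, at 36.9 in MARCO-/- and 15.0 in WT DC. Their part in the ratio of Apoe was not tested.

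**Figure D4:**
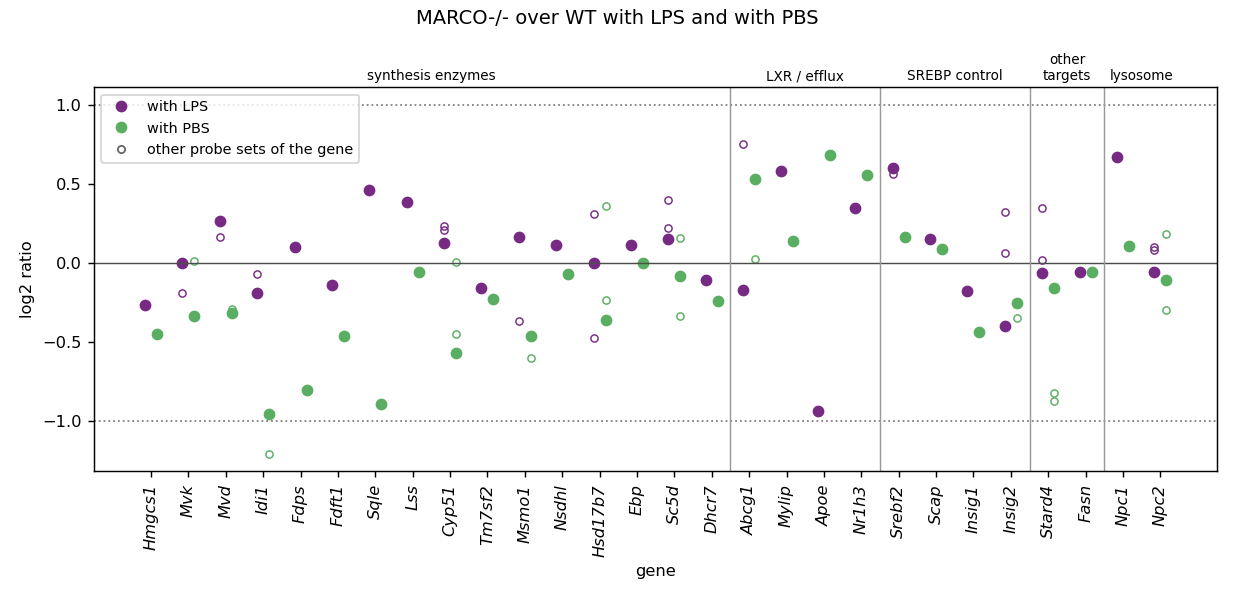
log2 ratio of MARCO-/- over WT for the 28 measured genes with LPS (purple) and with PBS (green); filled points are the brightest probe set, open points the other probe sets, and dotted lines mark 2-fold. With PBS the filled points of the synthesis enzymes lie at or below 0, down to -0.95 for Idi1, and with LPS they lie between -0.27 and 0.46.

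The LPS ratio was larger in MARCO-/- than in WT DC for 16 of 16 synthesis genes, against 48.1% of all genes. After quantile normalization it was no longer larger for Hmgcs1, Tm7sf2, Nsdhl, Ebp and Dhcr7, and after cyclic loess for all of these but Hmgcs1. For Tm7sf2 the log2 ratios after quantile normalization were 0.75 in MARCO-/- DC and 0.97 in WT DC. The difference in LPS ratio between genotypes was not tested, and it is made of the same 4 arrays as the genotype values above. Its median, as the log2 ratio in MARCO-/- DC minus that in WT DC, was 0.35 for the synthesis genes and -0.02 for all genes. Sqle was the 1 synthesis gene whose LPS fold differed by 2-fold or more, 2.56 times as large in MARCO-/- as in WT DC. For Fdps it was 1.87 times as large, for Idi1 1.70 times and for Cyp51 1.61 times. Among the LXR and efflux genes, the difference was -1.61 for Apoe, -0.70 for Abcg1, -0.21 for Nr1h3 and 0.45 for Mylip. The other probe set of Abcg1 went the other way, with LPS log2 ratios of -2.19 in MARCO-/- DC and -2.91 in WT DC.

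Of 6 oxysterol and bile acid enzymes, which were listed with the genes around the path, 1 was higher with LPS and 1 lower in MARCO-/- DC (6.32% and 5.98% of all genes), and 1 was higher and 2 lower in WT DC (6.2% and 8.31% of all genes). Ch25h, which makes an oxysterol that holds SREBP back, had 18 with LPS against 3.97 with PBS in MARCO-/- DC (4.53-fold higher), and 8.36 with LPS against 3.14 with PBS in WT DC (2.66-fold higher). Its PBS values lie below the median of all intensities. Cyp27a1, the mitochondrial sterol hydroxylase, had 21.4 with LPS against 221 with PBS in MARCO-/- DC (10.3-fold lower), and 17.5 with LPS against 243.9 with PBS in WT DC (13.9-fold lower). Cyp7b1, an oxysterol hydroxylase, was 2.62-fold lower in WT DC, and with PBS it had 5.12 in MARCO-/- and 14.9 in WT DC (2.90-fold lower).

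Of 8 measured LXR partners and further targets, 4 were at least 2-fold lower with LPS in MARCO-/- DC (5.98% of all genes) and 2 in WT DC (8.31% of all genes), and none was higher. Rxra, the partner receptor of LXR, had 5.80 with LPS against 16.1 with PBS in MARCO-/- DC (2.77-fold lower), and 5.85 with LPS against 20.1 with PBS in WT DC (3.43-fold lower). Pltp, the phospholipid transfer protein, was 3.09-fold lower in MARCO-/- DC and 2.80-fold lower in WT DC. Lpl, the lipoprotein lipase, and Apoc2, its cofactor, were 2.06-fold and 2.36-fold lower in MARCO-/- DC alone, and had folds of 1.09 and 0.732 in WT DC.

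Of 12 measured genes of sterol uptake, transport and storage, 2 were higher with LPS and 3 lower in MARCO-/- DC (6.32% and 5.98% of all genes), and 0 were higher and 2 lower in WT DC (6.2% and 8.31% of all genes). Scarb1, the HDL receptor, was 4.27-fold lower in MARCO-/- DC and 6.94-fold lower in WT DC. Lrp1, a receptor of apolipoprotein E, was 2.50-fold lower and Lipa, the lysosomal lipase that frees cholesterol from its esters, 2.19-fold lower in MARCO-/- DC, with 1.27-fold and 1.97-fold in WT DC. Cd36, a scavenger receptor for lipids, was 2.92-fold lower in WT DC and had 164 with LPS against 216 with PBS in MARCO-/- DC. Osbpl8, an oxysterol-binding protein, and Gramd1b, a carrier that takes up plasma membrane cholesterol, were 2.21-fold and 2.37-fold higher in MARCO-/- DC, with folds of 1.48 and 0.775 in WT DC.

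Of 12 fatty acid genes, 1 was higher with LPS and 1 lower in MARCO-/- DC (6.32% and 5.98% of all genes), and 2 were higher and 2 lower in WT DC (6.2% and 8.31% of all genes). Me1, the malic enzyme, was the 1 higher in both genotypes, 2.61-fold in MARCO-/- DC and 3.95-fold in WT DC. Elovl5, an elongase, was 2.22-fold lower in MARCO-/- DC and 2.11-fold lower in WT DC. Elovl6, an elongase of saturated fatty acids, had 20.0 with LPS against 22.9 with PBS in MARCO-/- DC, and 62.4 with LPS against 14.0 with PBS in WT DC (4.47-fold higher). Lpin1, a phosphatidate phosphatase, was 2.27-fold lower in WT DC. Of 9 measured genes of the isoprenoid branch, which leaves the path at farnesyl diphosphate, Rabggtb, a subunit of the enzyme that prenylates Rab proteins, was 2.13-fold higher in MARCO-/- DC, and Rabggta, its other subunit, was 2.01-fold lower in WT DC. None of 5 measured genes of SREBP cleavage and turnover was past 2-fold in any of the 4 comparisons. Among all genes, between 0.287% and 8.31% were past it in each direction of a comparison. The medians with LPS over PBS were -0.17 in MARCO-/- DC and -0.14 in WT DC for the fatty acid genes, and 0.03 and 0.11 for the isoprenoid branch.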

How the data were processed

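RNA of splenic DC was measured on 4 Affymetrix mouse arrays, whose probe sets bear a PM mark. The deposited intensities were background-corrected, normalized between arrays and summarized per probe set by the authors with RMAexpress, with no version stated. They are on a linear scale, and log2 was taken with no offset. RMA summaries can coincide exactly between arrays, as for Ebp and Mvk. No deposited fold changes were used.

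Of 45141 probe sets, 104 controls were left out, and 28898 have 1 gene symbol, 551 several and 15588 none in the annotation used. They stand for 17097 genes. Precision is limited by the number of arrays, 1 per group.

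The members, the lists, the motifs and the comparisons were chosen with earlier results of these data known. Members at or past 2-fold in any comparison, the regulators, the efflux genes and the first enzyme of each stage were named with values. Of other lists the genes past 2-fold were named, and further members after their values were seen. There were 10 other settings, and list medians were also taken without the gene of the largest ratio. A count or ratio within a factor of 1.5 was treated as unchanged. The steps were tested on simulated data. Python 3.11.15, numpy 2.4.6, pandas 2.3.3, matplotlib 3.10.9, R 4.3.3 and limma 3.58.1 were used.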

Additional observations from a re-analysis of the deposited data

Results flagged for a closer look

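Apoe went in opposite directions between genotypes in the 2 culture conditions. The log2 ratio of MARCO-/- over WT was -0.93 with LPS and 0.68 with PBS, a difference of -1.61. It was picked out because each ratio was past 1.5-fold and their signs differ. The difference was not tested, since there is 1 array per group, and Apoe has 1 probe set. The summed intensity of 14 macrophage markers was 677 in MARCO-/- and 458 in WT DC with LPS, and 3364 in MARCO-/- and 2111 in WT DC with PBS. With LPS, Spic alone had 434 of this sum in MARCO-/- and 247 in WT DC. The median log2 ratio of the 14 markers was -0.23 with LPS, where 4 were at least 2-fold higher and 4 lower, and 0.48 with PBS. Their part in this result was not tested.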

How the results depend on the processing

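Of 152 values of the counts and list medians under other settings, 138 stayed within a factor of 1.5 of the value given, and no member past 2-fold changed sign. Medians of MARCO-/- over WT with LPS did: that of the synthesis genes, 0.11 as given, was -0.04 after quantile normalization and after cyclic loess, and that of the LXR and efflux genes, 0.09 as given, was -0.03, -0.02, -0.01 with an offset of 16 and -0.17 where only genes with a highest log2 intensity of at least 6 were kept. No other median of these 2 lists did. Members at least 2-fold lower with LPS over PBS in WT DC, none as given, were 2 after centring the arrays on their medians, 1 with the mean of all probe sets and 5 at a threshold of 1.5-fold. In MARCO-/- DC this count, 3 as given, was 1 without probe sets ending in x_at, s_at or a_at, which leaves out Apoe and Nr1h3, and 1 at 3-fold. Members at least 2-fold higher with LPS in WT DC, 9 as given, were 10 after quantile normalization and after cyclic loess, and 5 at 3-fold. Between genotypes with LPS, 1 member was lower after quantile normalization and 1 after cyclic loess, and at 1.5-fold 2 were higher and 1 lower. Between genotypes with PBS, 1 was lower with the mean of all probe sets, and at 1.5-fold 1 was higher and 3 lower. With an offset of 16, which damps low values, the median log2 ratio of the synthesis genes with LPS in MARCO-/- DC was 0.83. The cause of the other changes was not tested. Of 184 repeats of the members' 2-fold calls, 166 stayed past 2-fold, 11 fell under it, among them Srebf2 under 3 settings and Hmgcs1 with the offset, and 7 were left out by a filter. Where only genes with a highest log2 intensity of at least 6 were kept, the median log2 ratio of all genes between genotypes with LPS was 0.13. No paired analysis was possible because there is 1 array per group.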
